A study of Mus musculus with 32 samples.

Results

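10 genes of DNA replication licensing, which encode the subunits of the replicative helicase, its loading factors and the polymerase clamp, namely Mcm2, Mcm3, Mcm4, Mcm5, Mcm6, Mcm7, Mcm10, Cdt1, Gmnn and Pcna, were followed in total RNA-seq of mouse zygotes and 2-cell embryos. The genes were chosen by name, and 10 of 10 were found among the 55385 genes listed for each library. All 10 passed the filter on low counts in every comparison.

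Embryos were wild type, made by in vitro fertilisation of B6D2F1/J oocytes with B6D2F1/J sperm, both from mice aged 6 to 8 weeks. Time is counted in hours post in vitro fertilisation (hpi). In the A-485 experiment, embryos were kept in 10 µM A-485, which blocks the acetyltransferase CBP/p300, or in DMSO from 4 to 20 hpi, and RNA was taken at the zygote stage and at the early and late 2-cell stages. In the TSA experiment, embryos were kept in 50 nM TSA (trichostatin A), an inhibitor of histone deacetylases, from 8 to 28 hpi, or in DMSO, and RNA was taken from late 2-cell embryos. Each of the 8 groups had 2 libraries of whole embryos. A-485 had therefore been washed out before the late 2-cell stage, and each inhibitor reached the entire embryo. Each stage and treatment was one of these groups, so comparisons that use the same group are not independent of each other. By sample number, the zygote and late 2-cell libraries of the A-485 experiment form a block apart from its early 2-cell libraries. The latter are numbered next to the libraries of the TSA experiment. The labels do not say which libraries were prepared together, so stage and batch cannot be told apart where these blocks are compared. Nothing in the labels says that the 2 libraries of a group came from separate matings or cultures, so p-values measure the spread between these libraries, which may be technical.

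Before S phase, each replication origin is licensed by loading a double ring of the Mcm2 to Mcm7 proteins, the core of the replicative helicase. Cdt1 brings the ring to the origin, and geminin, the product of Gmnn, binds Cdt1 and keeps used origins from being loaded again. Mcm10 helps to turn the loaded ring into a moving helicase, and Pcna is the sliding clamp that holds DNA polymerase on its template. Eggs store mRNA of many of these genes, and embryos begin to make their own transcripts at zygotic genome activation.

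Libraries held between 13206163 and 32585987 expected counts, and genes with a count of 1 or more numbered between 18917 and 26763. The share of counts on 13 mitochondrially encoded protein-coding genes was 0.795% to 1.06% in zygotes and 2.24% to 2.50% in early 2-cell embryos. At the late 2-cell stage it was 5.35% and 5.43% after A-485 against 2.35% and 2.44% in its controls, and 3.66% and 3.72% after TSA against 2.39% and 2.71%. Summed FPKM of 5 markers of the 2-cell embryo (Zscan4c, Zscan4d, Zscan4f, Zfp352 and Tdpoz4) was 3.71 and 5.41 in DMSO-treated zygotes and 477 and 551 in early 2-cell embryos, against 1.99 and 3.21 in the latter with A-485. Summed FPKM of 6 oocyte and egg markers at the late 2-cell stage was 1347 and 1356 after A-485 and 700.0 and 744 in its controls, and 686 and 707 after TSA and 531 and 547 in its controls. At that stage the 2-cell markers summed to 54.5 and 56.2 FPKM after A-485 against 208 and 232, and to 329 and 417 after TSA against 136 and 148. Markers of cumulus cells and fibroblasts summed to at most 2.04 and 2.64 FPKM in any library. Sperm markers summed to 15.3 and 18.9 FPKM in DMSO-treated zygotes and to 13.2 and 15.8 in A-485-treated ones, with Prm2 the highest marker. They summed to 5.59 and 7.08 in DMSO-treated early 2-cell embryos and to 7.92 and 8.44 in A-485-treated ones. Erythroid markers summed to 44.6 and 46.8 FPKM after TSA and to 0.78 and 1.36 in its controls, with 2 of the 5 at 0 in both TSA libraries. The part of mitochondrial and marker RNA in the results below was not tested. Because each library is scaled to its own counts, fewer embryos and less RNA per embryo cannot be told apart.

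Open chromatin at the promoters of these genes was read from ATAC-seq peak lists of the A-485 experiment, which cover the late 1-cell stage and the early 2-cell stage. Of the 10 genes, 8 had a peak within 1 kb of a start site of a protein-coding transcript in the late 1-cell DMSO list, 10 in the late 1-cell A-485 list, 10 in the early 2-cell DMSO list and 9 in the early 2-cell A-485 list. Among 11185 protein-coding genes whose mean FPKM reached 1, the shares were 42.4%, 41.3%, 51.2% and 64.4%. Mcm10 and Cdt1 were without a peak in DMSO-treated late 1-cell embryos, and Mcm10 lacked one at the early 2-cell stage with A-485. At the early 2-cell stage the fold enrichment of the Mcm3 peak was 11.9 in DMSO and 14.0 in A-485, that of the Mcm4 peak 9.54 and 10.4, and that of the Gmnn peak 9.28 and 11.9. It was higher in A-485 for Mcm2, Mcm5, Mcm6 and Cdt1 too. It was lower in A-485 for Pcna, with 8.73 in DMSO and 5.43 in A-485, and for Mcm7, with 7.69 and 6.22, and the Mcm10 peak, at 6.59 in DMSO, was not in the A-485 list. Each list pools both replicates and the lists hold between 7094 and 27693 peaks, so these differences have no replicate check and were not tested. The share of all genes with a higher fold enrichment in A-485 was not counted, so these values do not set the 10 genes apart from other promoters.

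The promoters are shown because E2F factors, which regulate replication genes in cycling cells, bind short GC-rich words. The 4 words TTTCCCGC, TTTCGCGC, TTTGCCGC and TTTGGCGC were searched on both strands of the 250 bases before each RefSeq start site (GRCm38.p6). They were found in 3 of the 8 genes with a RefSeq promoter (Mcm5, Mcm6 and Mcm7) and in 583 of 27025 genes (2.16%). Mcm4 and Gmnn were not among the promoters searched. The windows below are written along the gene's strand with the words in capitals, and overlapping words run together. The Mcm6 window is chr1:128359706-128359905, the Mcm5 window is chr8:75109309-75109508, and both lay inside ATAC-seq peaks in all 4 lists. Mcm7 has RefSeq start sites at 138171266 and 138171883, and a word was found only before the latter. The Mcm7 window is chr5:138172030-138172059 and lay inside a peak in both early 2-cell lists and in neither late 1-cell list. The other Mcm7 start site, at 138171266, lay inside a peak in all 4 lists.
Mcm6 (minus strand): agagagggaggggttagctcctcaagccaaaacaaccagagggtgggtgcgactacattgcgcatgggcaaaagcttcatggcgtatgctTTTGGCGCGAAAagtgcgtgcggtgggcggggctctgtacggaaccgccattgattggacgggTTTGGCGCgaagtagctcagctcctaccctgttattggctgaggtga
Mcm5 (plus strand): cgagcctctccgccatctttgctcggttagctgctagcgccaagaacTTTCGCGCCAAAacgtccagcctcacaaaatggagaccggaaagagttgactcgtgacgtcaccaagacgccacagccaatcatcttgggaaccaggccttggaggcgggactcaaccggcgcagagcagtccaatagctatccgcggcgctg
Mcm7 (minus strand): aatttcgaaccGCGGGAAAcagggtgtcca

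The joined run of Mcm6, TTTGGCGCGAAA, is the reverse complement of that of Mcm5, TTTCGCGCCAAA. It begins 110 bases before the Mcm6 start site and 153 bases before the Mcm5 start site, and Mcm6 holds a further word that begins 47 bases before its start. CCAAT, searched on both strands of the same windows, was found in 7 of the 8 genes and in 37.5% of all genes. A match of letters is a description and not a bound site.

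Levels of a gene are given as normalised CPM, the expected count relative to library size after TMM scaling over the 16 libraries. Levels of different genes are compared in FPKM, which also divides by effective length. A gene passed the test at an adjusted p under 0.05 (edgeR quasi-likelihood F test, Benjamini-Hochberg over all genes tested), and was called where it had also changed 2-fold or more and its mean FPKM reached 1 in a group compared.

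In DMSO-treated embryos most licensing transcripts fell from the zygote to the early 2-cell stage and rose again by the late 2-cell stage, not all of them to zygote levels. Of the 10 genes, 5 were called lower in early 2-cell embryos than in zygotes (Mcm3, Mcm5, Mcm7, Mcm10 and Cdt1), where 14.9% of genes tested were called lower. Mcm4, Mcm6 and Pcna passed the test with a smaller fall, although Pcna lost it without DMSO-treated zygote replicate 1 (adjusted p = 0.117 in edgeR), and Mcm2 and Gmnn passed it in the other direction. The median log2 fold change of the 10 genes was -1.09, against -0.12 over all genes with mean FPKM above the cutoff of 1.

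Mcm10 moved furthest. Its normalised CPM was 276 and 308 in zygotes and 69.1 and 55.6 in early 2-cell embryos, so that all zygote values lay above all early 2-cell values. It fell by 2.24 ± 0.11 on the log2 scale (SE, adjusted p = 2.96e-09 in edgeR). Among the ring subunits, Mcm3 was at 67.0 and 69.2 normalised CPM in zygotes and at 24.0 and 22.3 in early 2-cell embryos, a 2.98-fold fall. Mcm5 went from 66.5 and 61.1 to 19.8 and 21.8, and Mcm7 from 77.9 and 85.4 to 23.7 and 26.4. Cdt1, the loader, went from 93.1 and 95.3 to 38.3 and 41.7. None of these ranges overlapped, and the share of all genes tested without overlap at this step was not counted.

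Gmnn, the inhibitor of Cdt1, had 54.1 and 50.7 normalised CPM in zygotes and 92.0 and 106 in early 2-cell embryos. Mcm2 had 148 and 156 in zygotes and 211 and 191 in early 2-cell embryos. Gmnn and Mcm2 thus stood higher relative to other transcripts, by 0.90 ± 0.11 and 0.39 ± 0.09 on the log2 scale (SE, adjusted p = 1.45e-05 and 0.00222 in edgeR), but scaling to the mitochondrial genes, which moved the median gene by -1.33, turned both directions, to -0.42 and -0.95.

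From the early to the late 2-cell stage in DMSO, 4 of the 10 genes were called higher in the A-485 experiment (Mcm3, Mcm5, Mcm6 and Cdt1), where 15.9% of genes tested were called higher. In the TSA experiment 6 were called higher, the same 4 with Mcm10 and Gmnn, where 19.3% of genes were. Both comparisons use the same early 2-cell libraries. In the A-485 experiment Mcm4, Mcm7, Mcm10 and Gmnn passed the test upward below 2-fold. Pcna did not pass it there (log2 fold change 0.16, adjusted p = 0.411 in edgeR). With effective lengths as offsets Mcm4 lost it too (adjusted p = 0.158 in edgeR). Mean normalised CPM of Mcm7 and Mcm10 was 43.1 and 96.2 in those late 2-cell embryos, against 81.6 and 292 in zygotes. Mcm3 reached 136 and 124 normalised CPM in the A-485 experiment and 129.7 and 144 in the TSA experiment, above both its early 2-cell and its zygote values, a rise of 5.63-fold and 5.96-fold over the early 2-cell stage. Cdt1 reached 114 and 107 normalised CPM in the first and 101 and 93.1 in the second. Gmnn reached 155 and 159 in the first and 189 and 203 in the second, its highest values at any stage. Mcm2 was lower in the late 2-cell embryos of both experiments, at 150.2 and 149 and at 142 and 139, with adjusted p-values of 0.0118 and 0.000624 in edgeR. Without DMSO-treated early 2-cell replicate 1 the first fall lost the test, at a log2 fold change of -0.34. With effective lengths as offsets the second fall lost it, at -0.24 (adjusted p = 0.13 in edgeR).

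Between the DMSO-treated late 2-cell embryos of both experiments 0 of the 10 genes were called, by edgeR and by DESeq2, where edgeR called 1.19% of genes higher and 0.136% lower. Of the 10, 2 had an unadjusted p under 0.05. They were Mcm10, with a log2 difference of 0.47 ± 0.14 (SE, adjusted p = 0.12 in edgeR), and Gmnn, with 0.30 ± 0.10 (SE, adjusted p = 0.173 in edgeR), both higher in the TSA experiment. Mcm10 passed the test under 3 alternatives that kept all libraries of the comparison, with an adjusted p of 0.00464 without the count filter, 0.00909 with a replicate block and 0.0312 with all 16 libraries in the fit.

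**Figure D1:**
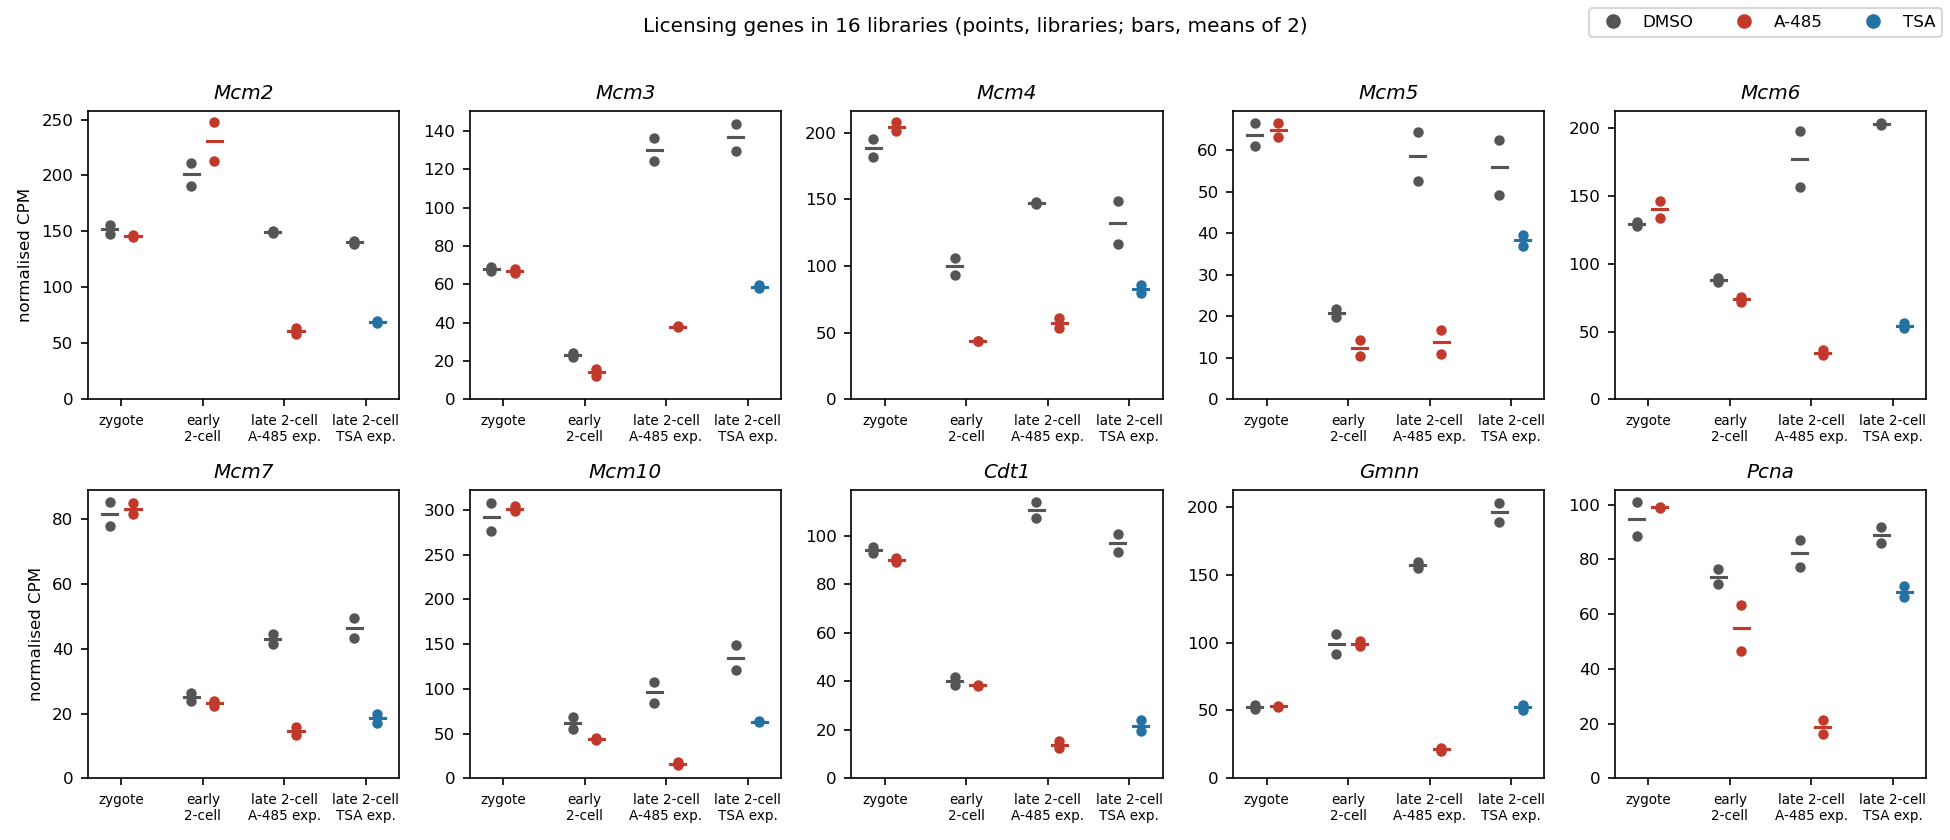
Normalised CPM (vertical axes, from 0) of each of the 10 genes in each library (points) by stage and experiment, with bars at the mean of 2 libraries, grey for DMSO, red for A-485 and blue for TSA. Late 2-cell embryos treated with A-485 sit below their DMSO controls for every gene, for example at 12.3 and 15.5 against 114 and 107 for Cdt1, while zygotes treated with A-485 sit close to theirs.

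In zygotes no difference in the licensing genes was detected between A-485 and DMSO. None of the 10 was called by edgeR or by DESeq2 (0 of 10 also at an unadjusted p under 0.05), where 0.00548% of genes were called higher and 0.0657% lower. Log2 fold changes lay between -0.06 and 0.12 with a median of 0.03, and their standard errors were at most 0.10. Mcm4, the member with the smallest p, had 208 and 201 normalised CPM in A-485 and 195 and 182 in DMSO (log2 fold change 0.12 ± 0.07, SE, adjusted p = 0.879 in edgeR). Mcm10 had 304 and 299 in A-485 against 276 and 308 in DMSO, and these values overlapped.

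In early 2-cell embryos part of the ring was lower after A-485. Mcm4 was the 1 gene of 10 called lower, where 7.9% of genes tested were called lower. Of the 10, 0 were called higher, and the share of all genes called higher was not counted. Mcm4 had 43.6 and 43.8 normalised CPM in A-485 and 106 and 93.0 in DMSO, a 2.38-fold difference with no overlap (log2 fold change -1.25 ± 0.11, SE, adjusted p = 8.46e-06 in edgeR). At an adjusted p under 0.05 whatever the fold, 5 of 10 genes were lower, where 10.2% of genes tested were. The others were Mcm3 at 12.3 and 16.1 normalised CPM against 24.0 and 22.3, Mcm5 at 14.4 and 10.4 against 19.8 and 21.8, Mcm10 at 44.7 and 42.4 against 69.1 and 55.6, and Pcna at 63.4 and 46.6 against 71.2 and 76.3. Each of these 4 had an adjusted p between 0.013 and 0.0438 in edgeR and lost the test when some single library was left out, with adjusted p up to 0.143 for Mcm3 (without A-485 replicate 1), 0.144 for Mcm5 (without A-485 replicate 2), 0.114 for Mcm10 (without DMSO replicate 1) and 0.264 for Pcna (without A-485 replicate 2). Without A-485 replicate 1 Mcm5 also differed by more than 2-fold, with a log2 fold change of -1.05. With all libraries kept and effective lengths as offsets, Mcm3, Mcm10 and Pcna did not pass the test (adjusted p = 0.0827, 0.277 and 0.0803 in edgeR). With mitochondrial scaling Pcna did not pass it either (adjusted p = 0.0611 in edgeR).

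The other 5 genes did not pass the test at the early 2-cell stage. Cdt1 was at 38.2 and 38.7 normalised CPM in A-485 and 38.3 and 41.7 in DMSO, and Gmnn at 97.3 and 101 against 92.0 and 106. Mcm2 was at 213 and 248 against 211 and 191, with a log2 fold change of 0.14 ± 0.10 (SE, adjusted p = 0.436 in edgeR). The A-485 effect on Mcm4 differed between the early 2-cell stage and the zygote by -1.32 ± 0.13 on the log2 scale (SE, adjusted p = 5.65e-07 in edgeR), and Mcm4 was the 1 gene of 10 for which this difference was called lower, where 3.69% of genes were.

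At the late 2-cell stage, after A-485 had been removed, all 10 licensing genes were lower in A-485-treated than in DMSO-treated embryos. All 10 were called, where 16.8% of genes tested were called lower and 10.5% higher, and for each the treated values lay below the control values without overlap, as they did for 30.7% of genes tested. The median log2 fold change was -2.15, against 0.02 over all genes with mean FPKM above the cutoff of 1. The loader and its inhibitor fell most. Cdt1 had 12.3 and 15.5 normalised CPM in A-485 and 114 and 107 in DMSO, an 8.13-fold difference (log2 fold change -3.02 ± 0.18, SE, adjusted p = 9.18e-08 in edgeR). Gmnn had 22.7 and 20.1 against 155 and 159, a 7.53-fold difference (-2.91 ± 0.16, SE, adjusted p = 4.36e-08 in edgeR).

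Mcm10 had 17.7 and 14.8 normalised CPM in A-485 and 84.2 and 108 in DMSO, and was 6.06-fold lower. Of the ring subunits Mcm6 changed most, with 32.4 and 36.1 against 156 and 198 (5.30-fold lower), followed by Mcm5 with 10.9 and 16.6 against 52.8 and 64.6 (4.37-fold) and Mcm3 with 38.2 and 37.8 against 136 and 124 (3.51-fold). Mcm2 and Mcm4 changed least, by 2.50-fold and 2.63-fold, at 58.6 and 64.1 against 150.2 and 149 for Mcm2 and at 60.9 and 53.8 against 148 and 147 for Mcm4. Mcm7, with 15.8 and 13.3 against 44.7 and 41.6, was 3.03-fold lower, and Pcna, with 21.4 and 16.3 against 87.1 and 77.2, was 4.48-fold lower. The 10 genes were called under both other scalings, for which the share of all genes called was not counted. Their median was -1.95 for total counts, which moved the median gene by 0.19. It was -3.13 for mitochondrial genes, which moved the median gene by -0.98. Where effective lengths were entered as offsets, 9 of 10 were called and Mcm7 was at -0.98 with an adjusted p of 0.0141 in edgeR. The effective length of Mcm7, which follows the mix of isoforms, ran from 829 to 2293 bases over the 16 libraries.

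**Figure D2:**
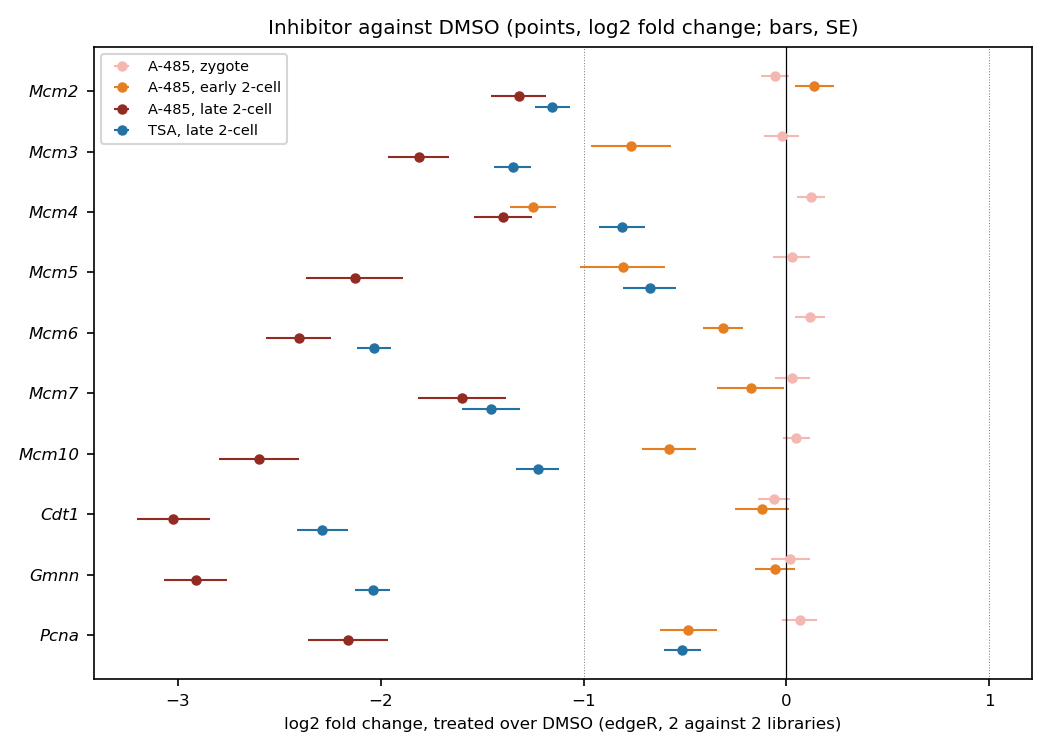
Log2 fold change (horizontal axis, treated over DMSO, bars are SE, dotted lines at 2-fold) of each gene for A-485 at each of 3 stages and for TSA at the late 2-cell stage, each from 2 against 2 libraries. Zygote points lie near 0, and late 2-cell A-485 points run from -1.32 for Mcm2 to -3.02 for Cdt1.

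The A-485 effect grew between the 2-cell stages for most of the genes. The late minus early difference was called for 8 of 10, all lower, where 7.38% of genes tested were called lower. It was -2.82 ± 0.23 for Cdt1 and -2.77 ± 0.19 for Gmnn (log2, SE, adjusted p = 1.31e-09 and 6.86e-11 in edgeR). For Mcm4 it was -0.06 ± 0.18 (log2, SE, adjusted p = 0.925 in edgeR), which leaves a 95% interval from -0.45 to 0.32. With mitochondrial scaling the Mcm4 difference was -1.12 with an adjusted p of 5.1e-05 in edgeR. For Mcm3 it was -0.96 and passed the test without reaching 2-fold. With effective lengths as offsets 6 genes were called, and Mcm5 (-0.56, adjusted p = 0.367 in edgeR), Mcm7 (-0.74, 0.192) and Mcm3 (-0.84, 0.0528) did not pass the test.

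Along development in A-485, 8 of the 10 genes passed the test as lower at the early 2-cell stage than in the zygote, and 2 as higher (Gmnn and Mcm2). The share of all genes that passed it in each direction was not counted, so these 2 counts do not set the 10 genes apart. From zygote to early 2-cell, 6 of 10 genes were called lower in A-485, where 15.6% of genes tested were. They were Mcm10 (6.88-fold), Mcm5 (5.21-fold), Mcm3 (4.68-fold), Mcm4 (4.65-fold), Mcm7 (3.57-fold) and Cdt1 (2.33-fold). Gmnn and Mcm2 had log2 fold changes of 0.91 and 0.67 (adjusted p = 1.94e-06 and 1.78e-05 in edgeR), which became -0.79 and -1.02 with mitochondrial scaling, which moved the median gene by -1.70.

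From early to late 2-cell in A-485, 6 of 10 genes were called lower, where 7.15% of genes were, and 1 was called higher, where 12.8% of genes were. Gmnn went from 97.3 and 101 normalised CPM to 22.7 and 20.1, a 4.81-fold fall, and Mcm2 from 213 and 248 to 58.6 and 64.1, a 3.88-fold fall. Cdt1, Mcm10, Pcna and Mcm6 were called lower too, by 2.85-fold, 2.77-fold, 3.03-fold and 2.23-fold. In DMSO over the same interval, Cdt1 and Mcm6 had been called higher. Mcm3 was the exception in A-485, at 12.3 and 16.1 and then at 38.2 and 37.8 (log2 fold change 1.37 ± 0.20, SE, adjusted p = 1.16e-05 in edgeR), although with mitochondrial scaling, which moved the median gene by -0.90, the value was 0.46 with an adjusted p of 0.139. Mcm4 and Mcm5 had log2 fold changes of 0.34 and 0.10 and did not pass the test, and mitochondrial scaling turned both, to -0.56 and -0.79, while Mcm4 passed the test upward with total counts (0.63, adjusted p = 0.00223 in edgeR), with all 16 libraries in the fit (0.39, 0.0115), with effective lengths as offsets (0.56, 0.0303) and without late 2-cell A-485 replicate 2 (0.44, 0.0237). Mcm7 passed the test at -0.71, below 2-fold, and with effective lengths as offsets it was at 0.41 and did not pass. It did not pass with total counts either (-0.43, adjusted p = 0.163 in edgeR), nor without early 2-cell A-485 replicate 1 (0.0711) or 2 (0.13) or late 2-cell A-485 replicate 2 (0.0501).

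**Figure D3:**
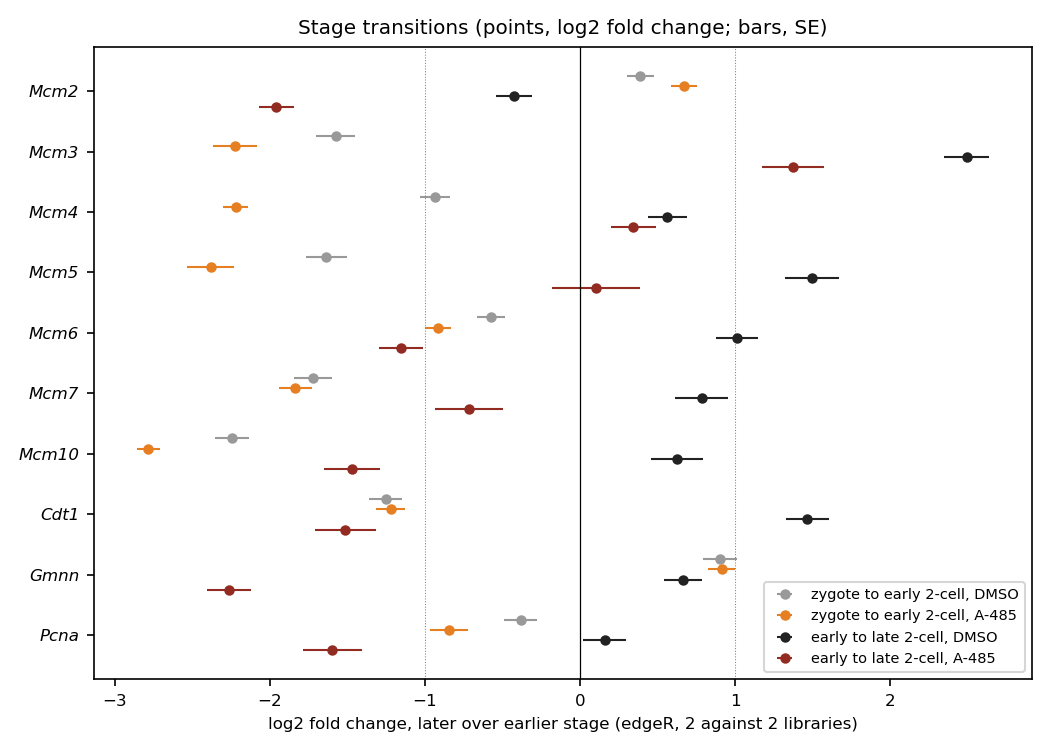
Log2 fold change (horizontal axis, later over earlier stage, bars are SE, dotted lines at 2-fold) of each gene from zygote to early 2-cell and from early to late 2-cell embryos, in DMSO and in A-485, each from 2 against 2 libraries with TMM scaling. From early to late 2-cell, Gmnn lies at 0.67 in DMSO and -2.27 in A-485 and Cdt1 at 1.47 and -1.51, and the positive zygote to early 2-cell values of Mcm2 and Gmnn turn negative with mitochondrial scaling.

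TSA lowered the same genes at the late 2-cell stage, by less for several of them. Of the 10 genes, 7 were called lower after TSA, where 13.9% of genes tested were called lower and 13.8% higher. At an adjusted p under 0.05 whatever the fold, all 10 were lower, where 21.4% of genes were, and for all 10 the treated values lay below the control values without overlap, as they did for 28.2% of genes. At that stage 2-cell markers were lower after A-485 and higher after TSA, and oocyte markers higher after both, and their part in these differences was not tested. The median log2 fold change was -1.29, against -0.03 over all genes with mean FPKM above the cutoff of 1. With scaling to total counts, which moved the median gene by 0.36, 4 were called (Mcm6, Mcm7, Cdt1 and Gmnn). The share of all genes called with total counts was not counted.

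Cdt1 again changed most, with 23.9 and 19.7 normalised CPM in TSA and 101 and 93.1 in DMSO, a 4.88-fold difference (log2 fold change -2.29 ± 0.12, SE, adjusted p = 1.38e-07 in edgeR). Gmnn had 54.2 and 50.2 against 189 and 203 (4.11-fold lower), and Mcm6 had 56.1 and 52.6 against 202 and 204 (4.09-fold lower). Mcm7, Mcm3, Mcm10 and Mcm2 were 2.74-fold, 2.55-fold, 2.34-fold and 2.23-fold lower. Mcm4, Mcm5 and Pcna passed the test below 2-fold, at 1.76-fold, 1.597-fold and 1.43-fold. Pcna had 70.4 and 66.1 normalised CPM in TSA and 86.1 and 91.8 in DMSO. With scaling to total counts neither Pcna (log2 fold change -0.16, adjusted p = 0.211) nor Mcm5 (-0.32, adjusted p = 0.0723) passed the test in edgeR.

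The effects of TSA and A-485 at the late 2-cell stage, each against its own DMSO, differed by a call for 3 of 10 genes, all less lowered by TSA, where 10.8% of genes tested were called in that direction. The difference was 1.76 ± 0.21 for Pcna, 1.56 ± 0.27 for Mcm5 and 1.48 ± 0.22 for Mcm10 (log2, SE, adjusted p = 9.29e-06, 0.000426 and 7.28e-05 in edgeR). Mcm3, Mcm4, Cdt1 and Gmnn passed the test of the difference below 2-fold, at 0.57, 0.69, 0.85 and 0.98. Mcm6 differed by 0.48 without passing it (adjusted p = 0.07 in edgeR, 95% interval from 0.11 to 0.85). Mcm2 and Mcm7 differed by 0.27 and 0.25, also without passing it, with 95% intervals from -0.06 to 0.61 and from -0.28 to 0.79. With mitochondrial scaling, which moved the median gene by 0.68, 8 were called. The share of all genes called with that scaling was not counted. The inhibitors were given over different hours and in separate experiments.

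The subunits of the ring were not held at one level. In DMSO-treated zygotes the FPKM of Mcm2 to Mcm7 spanned 2.57-fold and 2.51-fold between the highest subunit, Mcm4, and the lowest, Mcm3. In early 2-cell embryos the span was 7.88-fold and 7.23-fold in DMSO and 15.2-fold and 13.7-fold in A-485, with Mcm2 highest and Mcm3 lowest in all 4 libraries. Mcm2 made up 39.8% and 38.3% of the summed FPKM of the 6 subunits in DMSO and 52.2% and 54.1% in A-485, against 17.9% to 19.2% in zygotes of either treatment. By the late 2-cell stage in DMSO the span was between 2.02-fold and 3.03-fold in all 4 libraries, with Mcm6 highest and Mcm5 lowest.

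The summed FPKM of the 6 subunits was 260.0 ± 2.5 in DMSO-treated zygotes, 156 ± 5.5 in early 2-cell embryos and 251 ± 12 and 264 ± 11 in late 2-cell embryos of the A-485 and TSA experiments (SD, n = 2). It was 102 ± 5.9 after A-485 and 143 ± 6.7 after TSA at the late 2-cell stage (SD, n = 2). Late 2-cell spans were 2.74-fold and 1.91-fold in A-485 and 2.18-fold and 1.45-fold in TSA. No test was run on spans, shares or sums.

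Gmnn stood above Cdt1 in FPKM in all 16 libraries. The ratio was 1.39 and 1.20 in DMSO-treated zygotes, 3.76 and 5.19 in early 2-cell embryos, 3.31 and 3.65 in late 2-cell embryos of the A-485 experiment and 4.71 and 5.31 in those of the TSA experiment. With A-485 it was 4.90 and 6.21 at the early and 2.90 and 3.41 at the late 2-cell stage, and with TSA 4.82 and 5.73. In FPKM the ranges of treated and control libraries overlapped at each 2-cell comparison, while all zygote values lay below all 2-cell values. The effective length of Cdt1, which enters this ratio, ran from 1113 to 1971 bases over the 16 libraries. The ratio was not taken in normalised CPM and was not tested.

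**Figure D4:**
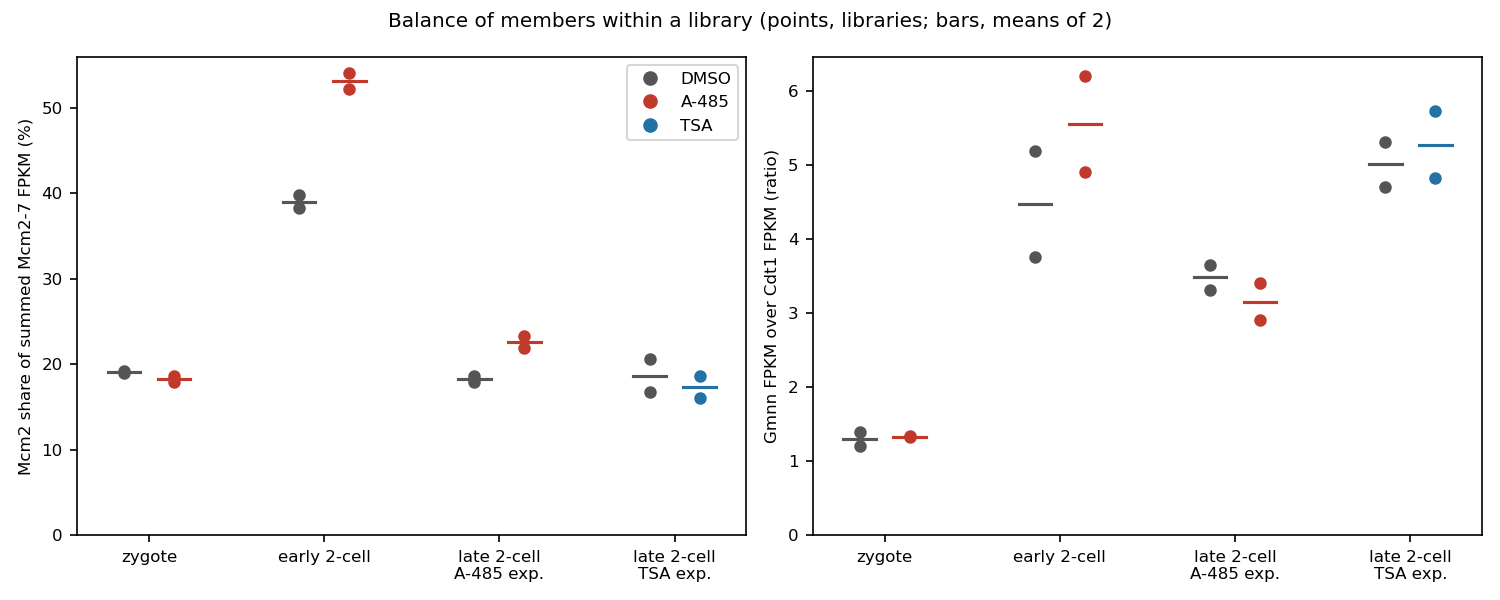
Share of Mcm2 in the summed FPKM of Mcm2 to Mcm7 (left, percent) and ratio of Gmnn to Cdt1 FPKM (right), both from 0, in each library (points) by stage and experiment with bars at the mean of 2 libraries. At the early 2-cell stage the Mcm2 share is 52.2% and 54.1% after A-485 and 39.8% and 38.3% in DMSO, and the ratio is lowest in zygotes.

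Within a group the order of FPKM levels changed with stage. Mcm10 was highest in DMSO-treated zygotes, at 86.4 and 97.1, and Pcna and Gmnn came next, with values that overlapped each other. Gmnn was highest in every group of 2-cell embryos, with 116 and 134 in DMSO-treated early 2-cell embryos and 194 and 209 in the late ones of the A-485 experiment. Mcm3 was lowest in zygotes and early 2-cell embryos of both treatments and Mcm5 in both DMSO-treated late 2-cell groups, although in the TSA experiment the values of Mcm5 overlapped those of Mcm7, which ranked next. After A-485 the lowest at the late 2-cell stage was Mcm10, at 7.12 and 6.99, and after TSA it was Cdt1, at 16.1 and 12.8. The Pcna FPKM values of TSA-treated (62.4 and 60.5) and DMSO-treated (60.7 and 67.5) late 2-cell embryos overlapped, unlike its normalised CPM.

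Other genes of replication were counted from a list of 62 in 7 classes. In zygotes 0 of 61 tested were called in A-485. In early 2-cell embryos 0 of 62 were called higher, and the share of all genes called higher was not counted. At that stage 6 of 62 were called lower, near the 7.9% of all genes tested. They included Rpa2, a subunit of the single-strand binding protein, at 2.19 and 1.59 FPKM in A-485 against 8.88 and 8.35, Orc1, the large subunit of the origin recognition complex, at 4.70 and 4.85 against 18.3 and 13.4, and Recql4, a helicase needed for initiation, at 0.36 and 0.38 against 1.20 and 1.57. At the late 2-cell stage 21 of 62 were called lower and 4 higher in A-485, against 16.8% and 10.5% of all genes tested, and the median log2 fold change of the list was -0.58 against 0.02 over all genes with mean FPKM above the cutoff of 1. After TSA 14 of 62 were called lower and 4 higher, against 13.9% and 13.8% of all genes tested, with a median of -0.41.

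By class, 6 of 13 helicase activation genes were called lower in A-485 and 6 of 13 in TSA at the late 2-cell stage, against those same shares of all genes. The class of origin recognition and loading genes also held Mcm8, Mcm9 and Mcmbp. Of its 10 genes, 4 were called lower in A-485 (Orc1, Cdc6, Mcm9 and Mcmbp) and 1 in TSA (Mcmbp). Of the Cdt1 turnover genes 3 of 5 and 2 of 5 were called lower, and of the single-strand binding genes 1 of 3 in each. Of the clamp genes 4 of 11 and 2 of 11 were called lower, with 1 higher in each. The differences between inhibitors in these counts were not tested. Gins3, a subunit of the GINS complex of the active helicase, was at 1.28 and 0.46 FPKM in A-485 against 12.5 and 11.97, and at 0.68 and 0.78 in TSA against 16.5 and 16.01. Cdc45, which travels with the active helicase, was at 7.07 and 7.73 FPKM in A-485 against 52.0 and 61.0. Of the polymerase and primase genes, 3 of 12 were called lower in A-485, and 2 lower and 2 higher in TSA. The clamp partner Pclaf was higher after both inhibitors, at 5.24 and 4.09 FPKM in A-485 against 0.09 and 0, and at 98 and 53.6 expected counts in TSA against 3 and 2, and its control libraries held at most 4 counts each in both experiments, so no fold is given. Pold4, a small subunit of DNA polymerase delta, was at 2.84 and 2.34 FPKM in TSA against 0.15 and 0.24, with at most 3 counts in each control library. Of the 8 E2F genes, 0 were called lower and 3 higher in A-485, and 0 lower and 1 higher in TSA. The class was not split into activators and repressors.

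The mean profile of Mcm2 to Mcm7, taken as log2(FPKM + 1) over the 8 group means, was compared with that of 9419 genes outside the 10 whose mean FPKM reached 10 in some group. Pearson's r was highest for Kif22, at 0.997, then Mrpl22 at 0.995, Tmco1 at 0.993, Rpl4 at 0.992 and Hnrnpk at 0.991. Kif22, a kinesin that binds chromosomes, had a mean FPKM of 103 in DMSO-treated zygotes, 15.3 in early 2-cell embryos and 73.3 in late 2-cell embryos of the A-485 experiment, and 7.66 in those treated with A-485. Of the 10 genes themselves, r with this profile was 0.94 for Mcm5, 0.93 for Mcm7 and 0.91 for Mcm4 but 0.36 for Gmnn and 0.14 for Mcm2. The 6 ring genes are part of the profile, the 8 groups share their libraries, and these values are a description.

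Counts of some of the genes are less certain than others. Mcm7 (GRCm38, chr5:138164583-138172422, minus strand) overlaps Cops6 and Ap4m1 on the other strand, which reached 34.8 and 8.79 FPKM, and a setting for strand in the counting is not given in the sources used here. Cdt1 (chr8:122568015-122573554, plus strand) overlaps Gm20388 on the same strand, which reached 1.22 FPKM. Reads that RSEM could not place uniquely gave a posterior standard deviation of at most 0.79% of the count for Mcm7 and 0.62% for Pcna, which has processed copies, and of at most 0.023% for the other 8 genes.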

How the data were processed

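Total RNA-seq of 16 libraries in 8 groups and 4 ATAC-seq peak lists were used, and 8 H3K27ac samples were not analysed here. The authors trimmed reads with Trimmomatic 0.39, mapped them to GRCm38 with STAR 2.7.8a and quantified genes with RSEM 1.3.1, per the labels. The deposited expected count is not normalised, and the deposited FPKM is scaled by the authors to effective length and mapped fragments. For ATAC-seq the authors deposited 1 list per group over both replicates, with a score, a fold enrichment ratio and a −log10 q-value of each peak, and the build is not stated for ATAC-seq in the methods. Symbols and positions are those of GENCODE M21 (55144 genes matched).

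Expected counts were rounded. In edgeR 4.0.16 (R 4.3.3), TMM and glmQLFTest were run on the 4 or 8 libraries compared, for genes whose counts summed to 10 or more there, and SE is the log2 fold change over the square root of F. Differences between effects were tested as interactions over 8 libraries. On data simulated for A-485 in early 2-cell embryos, 156 of 200 changed genes were called (78%), and 14 of 170 calls were false (8.2%). Libraries of a group differed beyond counting noise and were not duplicates. The count of reads limits precision, and n = 2 limits all tests. Replicate numbers did not pair libraries. Medians over all genes are over those whose mean FPKM reached 1 in some group compared. All 10 members are named whatever their values, along with up to 3 called genes of the replication list per inhibitor comparison and the 5 genes most like the Mcm2 to Mcm7 profile. Mcm8, Mcm9, Mcmbp and the called genes of their class at the late 2-cell stage are named as well. The members and lists were chosen with earlier results of these data known.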

Additional observations from a re-analysis of the deposited data

Results flagged for a closer look

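Results are given here where a test of the difference between 2 effects gave an adjusted p under 0.05 (edgeR quasi-likelihood F test of the interaction). Groups had 2 libraries each, so no test for an outlying library was run.

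The A-485 effect differed between early 2-cell embryos and zygotes by -0.69 for Mcm3, -1.32 for Mcm4, -0.78 for Mcm5 and -0.57 for Mcm10 (log2 difference, early 2-cell minus zygote). With effective lengths as offsets, Mcm3, Mcm5 and Mcm10 lost the test (adjusted p = 0.146, 0.0555 and 0.417 in edgeR). With all 16 libraries in the fit, Mcm5 and Mcm10 lost it (adjusted p = 0.08 and 0.0641 in edgeR). Mcm3, Mcm5 and Mcm10 lost the test when some single library was left out, with adjusted p up to 0.15, 0.152 and 0.0941 in edgeR, and Mcm4 passed it without each.

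The A-485 effect differed between late and early 2-cell embryos by -1.37 for Mcm2, -0.96 for Mcm3, -1.23 for Mcm5, -2.01 for Mcm6, -1.34 for Mcm7, -1.94 for Mcm10, -2.82 for Cdt1, -2.77 for Gmnn and -1.60 for Pcna (log2 difference, late minus early). Mcm5 lost the test without A-485-treated early 2-cell replicate 1 (adjusted p = 0.0526 in edgeR). With effective lengths as offsets, Mcm5, Mcm7 and Mcm3 lost it (-0.56, -0.74 and -0.84, adjusted p = 0.367, 0.192 and 0.0528 in edgeR).

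At the late 2-cell stage the effects of TSA and A-485 differed by 0.57 for Mcm3, 0.69 for Mcm4, 1.56 for Mcm5, 1.48 for Mcm10, 0.85 for Cdt1, 0.98 for Gmnn and 1.76 for Pcna (log2 difference, TSA minus A-485). With effective lengths as offsets, Mcm3, Mcm4 and Cdt1 lost the test (adjusted p = 0.203, 0.163 and 0.101 in edgeR). Mcm3 also lost it in DESeq2 (adjusted p = 0.0566). Mcm3, Mcm4 and Cdt1 lost the test when some single library was left out, with adjusted p up to 0.146, 0.114 and 0.0776 in edgeR.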

How the results depend on the processing

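Settings tried were total counts or mitochondrial genes in place of TMM, DESeq2 1.42.0, no count filter, no FPKM cutoff, all 16 libraries in one fit, a replicate block, each library left out, and effective lengths as offsets, which was chosen after seeing the data. The count of members called moved by over 1.5 times with total counts for TSA (4 against 7) and with mitochondrial scaling for the zygote to early 2-cell step in DMSO (8 against 5), for the A-485 effect at early 2-cell minus zygote (3 against 1) and for TSA minus A-485 (8 against 3). Leaving out 1 library gave 1 to 2 members called for A-485 in early 2-cell embryos and 1 to 2 for its difference from the zygote. Other shifts of the median gene over 0.1 were 0.27 for A-485 in zygotes, -0.18 for TSA, -0.13 for early to late 2-cell DMSO embryos of the TSA experiment, -0.33 for early 2-cell minus zygote and -1.04 for late minus early 2-cell with mitochondrial scaling, and -0.19 and 0.29 for the successive stage steps in A-485 and 0.13 for late minus early 2-cell with total counts. In all other comparisons the count stayed within 1.5 times of the main one. Shares of all genes called were taken from the main fit only, so counts under other settings have no share beside them. Correlations of the deviations of same-numbered libraries lay between -0.04 and 0.10, so the numbers share only a name. With the replicate block the counts of members called were as in the main fit for all 13 comparisons, at 1 for A-485 in early 2-cell, 10 for A-485 and 7 for TSA in late 2-cell embryos, and 3 of 130 single values changed their side of the threshold. Over single genes, 1445 values kept their side of the threshold and direction, 74 lost the test, 24 gained it and 7 turned. Those that turned were Mcm2 and Gmnn from zygote to early 2-cell with mitochondrial scaling (-0.95 and -0.42 in DMSO, -1.02 and -0.79 in A-485), Mcm4 and Mcm5 from early to late 2-cell in A-485 with that scaling (-0.56 and -0.79), and Mcm7 there with length offsets (0.41), and the cause was not tested. Counting peaks above each list's median fold enrichment alone left 5 of 10 members with a promoter peak in both late 1-cell lists and in DMSO-treated early 2-cell embryos and 6 in the early 2-cell A-485 list, against 24.9%, 22.9%, 26.8% and 40.1% of expressed coding genes in the late 1-cell DMSO and A-485 and early 2-cell DMSO and A-485 lists.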
